A study of Mus musculus with 4 samples.

Results

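Nuclear receptors are transcription factors whose activity is set by small lipophilic ligands, or, for the orphan members, by no established ligand. The genes of this family were chosen by name, with a pattern that covers the Nr0 to Nr6 symbols and the symbols of the retinoid, thyroid hormone, vitamin D, estrogen, estrogen-related, PPAR, ROR and HNF4 receptors. The pattern used no measured value, though it was chosen with earlier results of these data known. The pattern matched 46 of 28307 gene names on the array, carried by 79 probes in 124 spots. Of these, 45 are nuclear receptor genes, and the other, Nr2c2ap, encodes a protein that associates with the receptor Nr2c2. Of the 45 receptor genes, 30 had a probe above background and were measured, among 14801 genes tested.

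Expression was measured on 4 two-colour Agilent arrays, each hybridised with 2 RNAs in different dyes, one labelled Lgr5-GFP and one labelled CD24hi. Both came from crypts of normal colon of adult Lgr5_EGFP-ires-CreERT2 knock-in mice, in which the Lgr5 promoter, active in stem cells at the crypt base, drives GFP. GFP-positive cells were sorted as 1 population, and cells with a high level of CD24, a surface protein, were sorted with an anti-CD24 antibody as a subset of goblet cells. There were 2 replicates, each a first array and a dye swap, and the question is how expression differs between the sorted populations. The knock-in allele was present in the animals of both populations, and nothing in the labels ties the replicates to separate animals. The p-values therefore cover the spread between these samples alone, and that spread may be technical. Slide and replicate cannot be told apart, since each replicate had a slide to itself.

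The genes that define the sort ran against the labels. Lgr5 was lower in the RNA labelled Lgr5-GFP, at -3.41 ± 0.29 (log2 ratio, SD, n = 2, limma adjusted p = 0.000625), while Cd24a had a higher level there, at 2.12 ± 0.30 (limma adjusted p = 0.000781). The goblet mucin Muc2 was at 3.76 ± 0.58 and the proliferation gene Mki67 at -3.03 ± 0.62. Of the marker lists, 9 of 12 goblet genes measured were higher and none lower (median 2.7), and 8 of 9 stem cell genes were lower and none higher (median -1.31). All 10 cell cycle genes were lower (median -2.5). Absorptive colonocyte genes were higher in 5 of 10, enteroendocrine genes in 4 of 7 and tuft cell genes in 5 of 6, with 1 tuft cell gene lower. The measured enteroendocrine genes not called were lower in replicate 1 and higher in replicate 2, so the replicates differed there. Of 12 immune genes 4 were measured, with Cd14 lower at -0.40, and of 12 stromal, endothelial and glial genes 4 were measured, with Col1a2 higher at 0.44. Of the unmeasured stromal and endothelial genes, Pecam1, Cdh5, Kdr, Pdgfra and Dcn had no probe above background on any array. Col1a1, Col3a1 and Des were above it on some arrays only. Of the unmeasured immune genes, Cd3g and Tyrobp had no probe above background on any array. Ptprc, Cd79a, Csf1r, Itgam, Lyz2 and Ms4a1 were above it on some arrays only. All directions below follow the labels. A ratio is the log2 of the RNA labelled Lgr5-GFP over that labelled CD24hi. If the labels were exchanged, every higher would become lower. In sorted bulk RNA, fewer cells of a type and less RNA per cell cannot be told apart, and the part of the marker genes' differences in the receptors' values was not tested.

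As background, a nuclear receptor binds DNA through a zinc finger domain, often at copies of the half-site AGGTCA, and recruits coactivators or corepressors through its ligand-binding domain. RXR proteins are the shared partners of the vitamin D, retinoic acid, thyroid hormone, PPAR, LXR and FXR receptors. In the intestinal epithelium these receptors respond to hormones, vitamins, fatty acids, sterols and bile acids, HNF4 proteins maintain enterocyte genes, and Nr5a2 is known for its part in crypt cell renewal.

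The receptor values rest on 60-base probes, of which the first 30 bases are shown for receptors with the widest ratios and for genes whose probes gave unlike values. Positions are those of the files' annotation, build mm9, each probe is written 5′ to 3′, and no base is in capitals because no motif is marked.
Nr2e3 probe (chr9:59791054-59791113, minus strand): gtaattccacattcaggtattcctacctag
Vdr probe (chr15:97685136-97685195, minus strand): gaggcggaaatgggtaccaaaatgagagat
Nr5a2 probe (chr1:138740903-138740962, minus strand): atgcaaagacagtgattctgcatatggcct
Thra brighter probe (chr11:98626356-98626415, plus strand): aaatggtagtcatcctaactgcactttgga
Thra dimmer probe (chr11:98625642-98625701, plus strand): tacctgctggcgtttgagcactacgtcaac
Nr1d1 brightest probe (chr11:98630526-98631028, minus strand): ggcacctttgaggtgctgatggtgcgcttt
Nr1d1 middle probe (chr11:98633332-98633391, minus strand): agtccctctacagtgacagctccaatggca
Nr1d1 dimmest probe (chr11:98636435-98636494, minus strand): tggtgcctcatttctccatcacctacttac
Rxrb brighter probe (chr17:34174996-34175055, plus strand): gtggaggaacccattgctcttttaatttcc
Rxrb dimmer probe (chr17:34173690-34173864, plus strand): ccatctttgatcgggtgctgacagagctag
Esrra brighter probe (chr19:6985599-6985658, minus strand): atgccctgcagagcaataacactatattta
Esrra dimmer probe (chr19:6991170-6991229, minus strand): ggggaggtgaaactgacttggtcagaactg
The brightest Nr1d1 probe and the dimmer Rxrb probe have mapped spans longer than the probe itself, so their bases lie in more than 1 genomic block.

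Among the measured receptors, 16 of 30 were called by limma (adjusted p under 0.05 over all genes tested), which is 53.3% beside 47.2% of all genes. By direction, 13 of 30 were lower in the RNA labelled Lgr5-GFP (43.3%, against 25.5% of all genes) and 3 of 30 were higher (10%, against 21.7%). The receptors' median log2 ratio was -0.34, beside -0.07 for all genes, and their median absolute log2 ratio was 0.43, beside 0.38. A second rule without a test, at least 2-fold in the same direction in both replicates, held for 6 receptors, all lower (20%, beside 12.0% of all genes in either direction, 5.90% higher and 6.05% lower). These 6 were Nr2e3, Vdr, Nr5a2, Nr3c1, Thra and Nr1d1. The background filter asked for signal in 1 population only, and Nr2e3, Nr2c2, Esr1 and Nr3c2 passed it through the RNA labelled CD24hi alone. With signal asked for in both populations, 14 of 26 receptors were called, 11 lower and 3 higher, beside 52.2% of all genes, and 5 were at least 2-fold lower in both replicates. With each array centred on its median in place of loess, 20 receptors were called, 1 higher and 19 lower, beside 51.6% of all genes. Of all calls under that centring, 29% were higher, against 45.9% here. That centring moved the median of all genes to -0.25 and that of the receptors to -0.59. With spots of non-uniform background kept in the background fit, 3 receptors and 1387 genes were called.

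**Figure D1:**
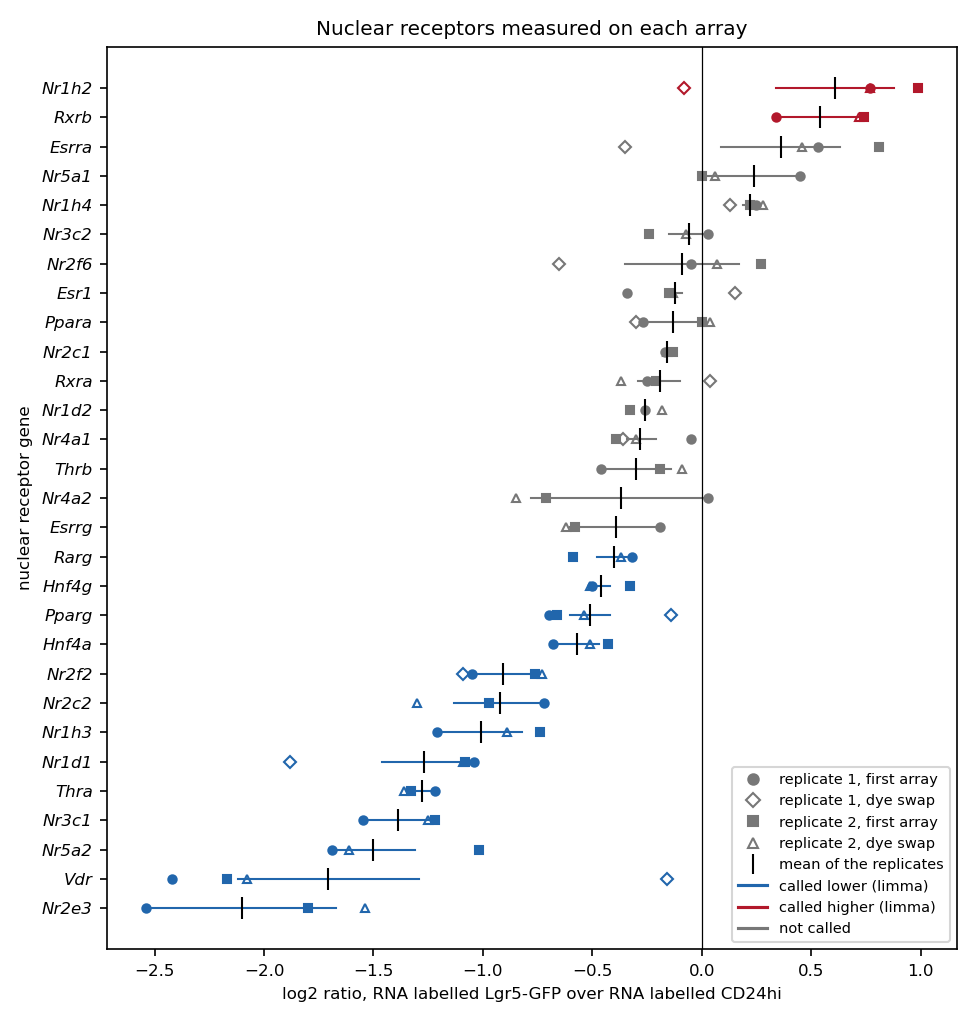
Log2 ratio of RNA labelled Lgr5-GFP over that labelled CD24hi (horizontal axis) for 29 of the 30 measured nuclear receptor genes (vertical axis), with 1 symbol per array, a black bar for the mean of the 2 replicates and a line between the replicate values. The 13 genes called lower lie at the bottom, from Rarg at -0.40 to Nr2e3 at -2.10, and the open diamonds of the dye swap of replicate 1 lie apart for Vdr and Nr1d1.

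The dye swap of replicate 1 limited many of these values. The scanner software marked 75.3% of its gene spots as outliers, against at most 0.399% on any other array, and marked spots were left out. For 17 of the 30 measured receptors (56.7%) replicate 1 therefore rested on its first array alone and was not dye-balanced. Without that dye swap, 18 of 30 receptors were called, beside 57.7% of all genes. Among them were Esrra at 0.58 and Esrrg at -0.39 (limma adjusted p = 0.00363 and 0.0397). Without the first array of replicate 1, 13 receptors could be tested and 2 were called, beside 16.3% of the 6031 genes tested. Between arrays the log2 ratios correlated at r of 0.721 to 0.958 across genes, which are not independent replicates.

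**Figure D2:**
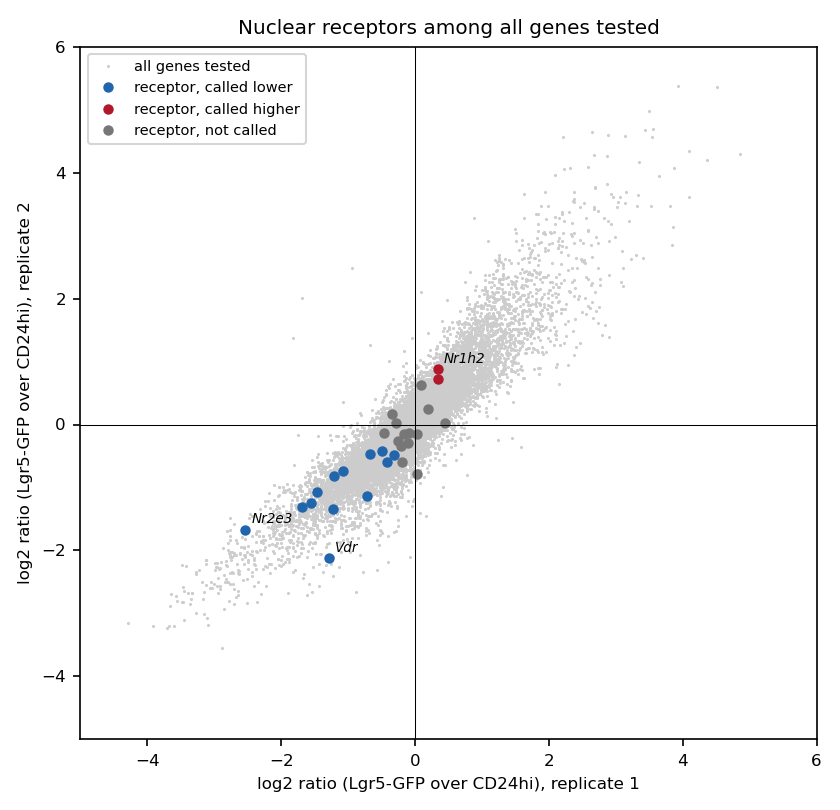
Log2 ratio in replicate 1 (horizontal axis) against replicate 2 (vertical axis) for all 14801 genes tested (light grey) and 29 of the 30 measured receptors, coloured by limma's call. The receptors lie within the cloud of all genes and reach further down than up, from Nr2e3 at -2.54 and -1.67 to Nr1h2 at 0.34 and 0.88.

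Among receptors for steroid hormones, Nr3c1, the glucocorticoid receptor, was lower. Its log2 ratio was -1.55 on the first array of replicate 1 and -1.22 and -1.25 on the pair of arrays of replicate 2, with no value on the other dye swap. All 3 arrays lay below -1, and the replicates' mean was -1.39 ± 0.22 (SD, n = 2, limma adjusted p = 0.00143). Nr3c2, the mineralocorticoid receptor, which controls sodium uptake in the distal colon, had replicates of opposite sign, at 0.03 and -0.15 (arrays at 0.03, -0.24 and -0.07), and was not called. Esr1, the estrogen receptor alpha, was at -0.09 and -0.14 in the replicates. It was above background on all 4 arrays in the RNA labelled CD24hi and on 2 in the other RNA, and was not called. Its arrays differed in sign, with 0.15 on the dye swap of replicate 1 and -0.34, -0.15 and -0.13 on the other arrays.

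The estrogen-related receptors, orphan receptors known for control of mitochondrial genes, were not called. Esrra was at 0.53, -0.35, 0.81 and 0.46 on the 4 arrays, in the order first array, then dye swap, of replicate 1 and then of replicate 2. Only the dye swap of replicate 1 lay below 0, and the replicates' mean was 0.36 (limma adjusted p = 0.132). Esrrg was at -0.19 and -0.60 in the replicates (limma adjusted p = 0.079).

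Vdr, the vitamin D receptor, a regulator of calcium uptake and epithelial defence, was lower. Its log2 ratio was -2.42 on the first array and -0.16 on the dye swap of replicate 1, and -2.17 and -2.08 on those of replicate 2. The dye swap of replicate 1 was near 0 and the other 3 arrays were below -2. The mean over replicates was -1.71 ± 0.59 (SD, n = 2, limma adjusted p = 0.00267), and without that dye swap it was -2.27. Vdr was called lower in 14 of 14 alternative ways of processing.

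Of the thyroid hormone receptors, Thra was lower and its paralogue Thrb was not called. Thra was at -1.22 on the first array of replicate 1 and at -1.33 and -1.36 on the arrays of replicate 2. These values lay close together, with a mean of -1.28 ± 0.08 (SD, n = 2, limma adjusted p = 0.00132), and Thra was called in 13 of 13 alternatives. Thrb was at -0.46 and -0.14 in the replicates (limma adjusted p = 0.13). The test does not show that the paralogues differ, because the difference between them was not tested.

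Of the retinoic acid receptors only Rarg, a receptor for all-trans retinoic acid, was measured. It was at -0.32, -0.59 and -0.37 on the 3 arrays with a value, all below 0, with a mean of -0.40 ± 0.11 (SD, n = 2, limma adjusted p = 0.0453). The sign depended on the probe. Another Rarg probe that did not pass the background filter was at 0.42 and 0.32 in the replicates. With no filter on dim probes it stood for the gene, at 0.37 (limma adjusted p = 0.0387). Its mean log2 signal was higher (7.64 against 7.22), but included the dye swap of replicate 1, where the kept probe had no value. The median signals of that array were 4380 and 1360, against at most 197 on the others. The remaining Rarg probes, which also did not pass the filter, had means of 0.16 and 0.

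Of the RXR partner genes, 1 was called. Rxrb was higher, at 0.34 on the first array of replicate 1 and at 0.74 and 0.72 on the arrays of replicate 2. All were above 0, with a mean of 0.54 ± 0.28 (SD, n = 2, limma adjusted p = 0.0301), and the call held in 7 of 13 alternatives. Rxra was at -0.10 and -0.29 in the replicates and was not called in the values as reported or in any of 14 alternatives. Rxrg had no probe above background on any array.

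Among the receptors for fatty acids, sterols and bile acids, calls lay on both sides. Pparg, a receptor for fatty acids with a known role in colonocyte differentiation, was at -0.70, -0.14, -0.66 and -0.54 on the 4 arrays. All were below 0 and the dye swap of replicate 1 was nearest to it, with a mean of -0.51 ± 0.12 (SD, n = 2, limma adjusted p = 0.0222). Its probe was spotted repeatedly, and the SD between the spots used ranged from 0.04 to 0.13 within an array, smaller than the gap between the arrays of replicate 1. Ppara, a regulator of fatty acid oxidation, had replicates of opposite sign, at -0.28 and 0.02 (arrays at -0.27, -0.30, 0.00 and 0.04), and was not called.

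The LXR genes, whose products sense oxysterols, were called in opposite directions. Nr1h3 (LXR alpha) was lower, at -1.21, -0.74 and -0.89 on the 3 arrays with a value and -1.01 ± 0.28 over replicates (SD, n = 2, limma adjusted p = 0.00399). Nr1h2 (LXR beta) was higher, at 0.77, -0.08, 0.99 and 0.77 on the 4 arrays. The dye swap of replicate 1 was the single array below 0, and the mean was 0.61 ± 0.38 (SD, n = 2, limma adjusted p = 0.03). Nr1h2 was called in 6 of 14 alternatives and Nr1h3 in 12 of 13. Nr1h4, the bile acid receptor FXR, was at 0.19 and 0.25 in the replicates and was not called (limma adjusted p = 0.19).

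Of the receptors of the circadian clock, Nr1d1 (Rev-erb alpha), a repressor that is part of the clock's feedback loop, was lower. Its log2 ratio was -1.04, -1.88, -1.08 and -1.09 on the 4 arrays, all below -1 and with the dye swap of replicate 1 furthest from 0. The mean over replicates was -1.27 ± 0.27 (SD, n = 2, limma adjusted p = 0.00206). Its paralogue Nr1d2 (Rev-erb beta) was at -0.26 in both replicates and was not called (limma adjusted p = 0.131). The difference between these paralogues was not tested, and the other kept probes of Nr1d1 were at -0.21 and 0.02.

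HNF4 receptors, which maintain epithelial and enterocyte genes, were lower by a modest amount. Hnf4a was at -0.68, -0.43 and -0.51 on the 3 arrays with a value and -0.57 ± 0.14 over replicates (SD, n = 2, limma adjusted p = 0.016). Hnf4g was at -0.50, -0.33 and -0.51 on its 3 arrays and -0.46 ± 0.06 over replicates (SD, n = 2, limma adjusted p = 0.0273). On the probes that stood for these genes all arrays lay below 0. The calls held in 10 of 13 alternatives for Hnf4a and 8 of 13 for Hnf4g. Another Hnf4g probe that did not pass the background filter was at 0.06 and -0.01 in the replicates. It was above background on the dye swap of replicate 1 only.

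Of the NR5 receptors, Nr5a2 (LRH-1), which binds phospholipids, controls intestinal steroid synthesis and is expressed in crypts, was lower. It was at -1.69 on the first array of replicate 1 and at -1.02 and -1.61 on the arrays of replicate 2. Each array lay below -1, with a mean of -1.50 ± 0.27 (SD, n = 2, limma adjusted p = 0.00134). Nr5a1, the steroidogenic factor of adrenal gland and gonads, was at 0.45 and 0.03 in the replicates and was not called.

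Among the other orphan receptors, Nr2e3, known as a photoreceptor gene, was lower. Its ratio was -2.54 on the first array of replicate 1 and -1.80 and -1.54 on the arrays of replicate 2, with a mean of -2.10 ± 0.61 (SD, n = 2, limma adjusted p = 0.00168). All 3 values were below -1, and the RNA labelled Lgr5-GFP was above background on 2 of the 3 arrays. Without the dye swap of replicate 1, where Nr2e3 had no value, the mean of Vdr was further from 0, at -2.27. Nr2f2 (COUP-TFII), a regulator of mesenchymal and endothelial development, was lower at -1.05, -1.09, -0.76 and -0.73, with a mean of -0.91 ± 0.23 (SD, n = 2, limma adjusted p = 0.0047). Its 4 arrays lay on 1 side and close together. Nr2c2 (TR4), a binder of direct repeats of the half-site, was at -0.72, -0.97 and -1.30 on its 3 arrays, with a mean of -0.92 ± 0.29 (SD, n = 2, limma adjusted p = 0.00549). The RNA labelled Lgr5-GFP was above background on 2 of these 3 arrays. Another Nr2c2 probe that did not pass the background filter was at 0.09 and 0.17 in the replicates, so the direction of Nr2c2 depended on the probe. Its mean log2 signal was higher (8.32 against 7.3), but included the dye swap of replicate 1, where the kept probe had no value. On the first array of replicate 2 that other probe was above background in neither RNA.

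Nr2c1 (TR2) was at -0.17 and -0.15, and Nr2f6, a repressor known from T cells, had replicates of opposite sign at -0.35 and 0.17 (arrays at -0.05, -0.65, 0.27 and 0.07). The immediate early receptors of the Nr4a group, induced rapidly by many stimuli, were represented by Nr4a1 at -0.21 and -0.34 and Nr4a2 at 0.03 and -0.78 (arrays at 0.03, -0.71 and -0.85). None of these was called. Nr2c2ap, the gene that matched by name without being a receptor, was at 0.10 and 0.29 and was not called.

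The 15 receptors that were not measured had 20 probes with means between -0.16 and 0.26. Esrrb, Nr0b1, Nr0b2, Nr1h5, Nr2e1, Nr2f1, Nr4a3, Rara, Rarb and Rxrg, 10 genes in all, had no probe above background on any array in either population. Esr2, Nr6a1, Ppard, Rora and Rorb were above background on some arrays only. No direction was read from these 15, and a signal below background does not show that a gene is absent from the cells.

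Probes of the same gene often gave unlike values. Of 10 receptors with more than 1 kept probe, Rxrb was the single gene with every probe called, at 0.54 and 1.23, both higher. In 6 receptors some probes were called and others were not. For Nr1d1 the brightest probe was at -1.27, while the others were at -0.21 and 0.02. For Thra the brighter probe was at -1.28 and the other at -0.02, although the dimmer was above background on all 3 arrays with a value. Thra and Nr1d1 lie on opposite strands and overlap by 1075 bases in RefSeq (assembly GRCm38.p6), and the part of this overlap in their values was not tested. The listed mm9 positions of the brighter Thra probe and the brightest Nr1d1 probe do not overlap each other.

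**Figure D3:**
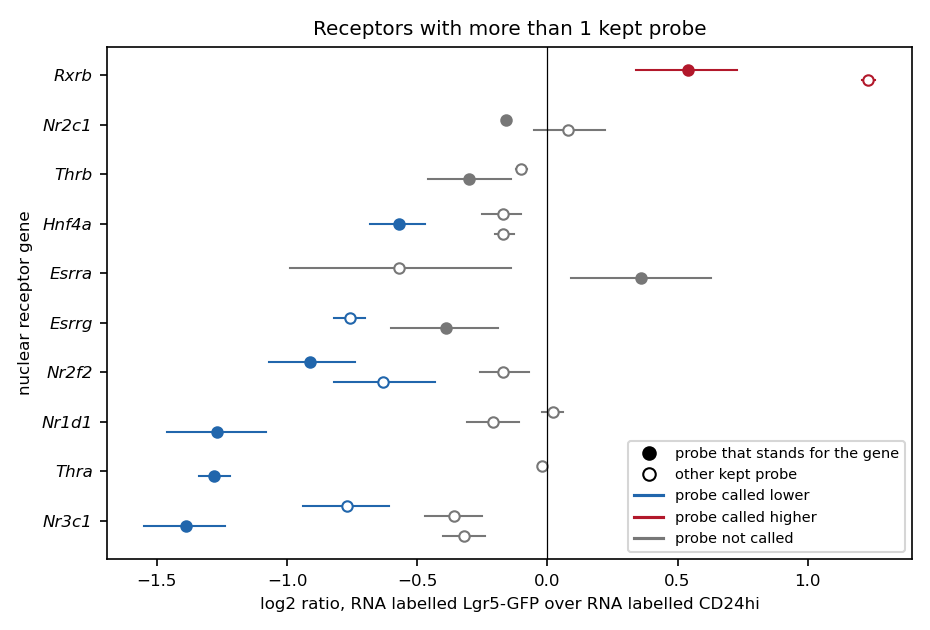
Log2 ratio of RNA labelled Lgr5-GFP over that labelled CD24hi (horizontal axis) for each kept probe of the 10 receptors with more than 1 (vertical axis), filled for the brightest probe, which stands for the gene, and open for the others, with a line between the 2 replicates. The open points of Nr1d1 and Thra lie near 0 while their filled points lie at -1.27 and -1.28, and both Rxrb points lie above 0.

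Nr3c1 had 4 kept probes, all below 0, at -1.39, -0.77, -0.36 and -0.32, of which 2 were called. Nr2f2 had 3, at -0.91, -0.63 and -0.17, of which 2 were called, and Hnf4a had 3, at -0.57, -0.17 and -0.17, of which 1 was called. In these 3 genes the brightest probe had the widest ratio. Esrrg was uncalled by its brightest probe, at -0.39, while its other probe was called lower, at -0.76. The Esrra probes differed in sign, at 0.36 and -0.57, as did those of Nr2c1, at -0.16 and 0.08, and none of these was called. With the mean over a gene's kept probes in place of the brightest probe, 16 receptors were still called, beside 46.2% of all genes. Under that rule 3 rather than 6 were at least 2-fold in both replicates.

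**Figure D4:**
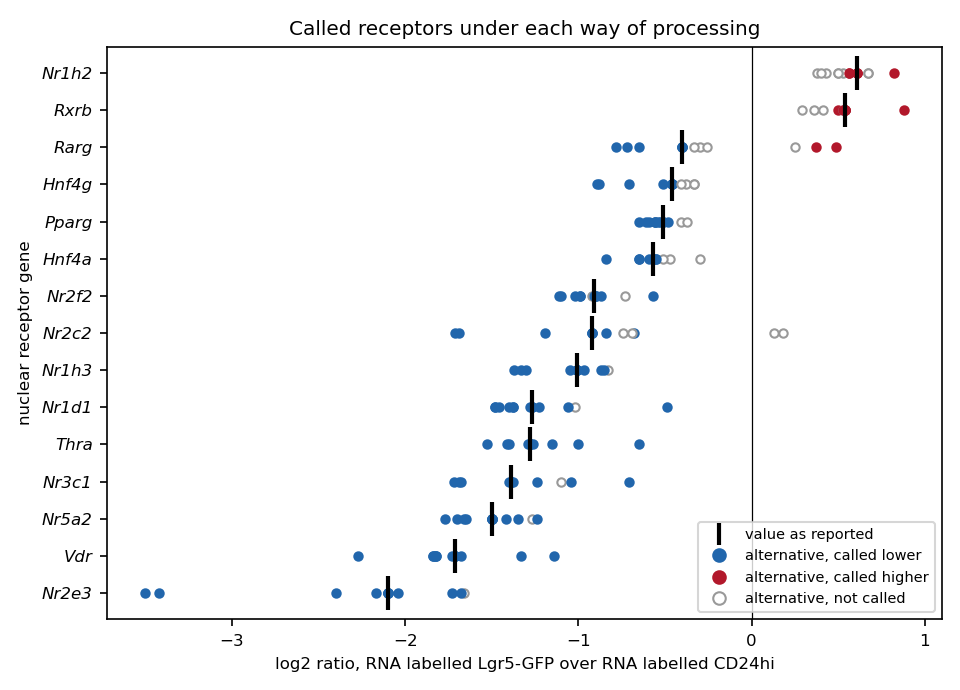
Log2 ratio of RNA labelled Lgr5-GFP over that labelled CD24hi (horizontal axis) of 15 of the 16 called receptors (vertical axis) as reported (black bar) and under each alternative way of processing (points, open where limma made no call). Vdr and Thra have no open point, and only Rarg and Nr2c2 have points on both sides of 0.

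The half-site AGGTCA was looked for in the 250 bases before the start of each RefSeq entry (GRCm38.p6), on both strands. It was found in 11 of 61 promoter entries of 40 receptor genes (18%), beside 14% of 32851 entries of all genes. The palindrome CACGTG, the E-box that clock activators bind, was found in 4 of 61 (6.56%) beside 6.02% of all entries. Both shares lay near those of all promoters, and no receptor entry held both motifs. The 250-base windows of 1 entry each of Nr5a2 and Pparg, genes called lower, are shown as examples, with the half-site in capitals, beginning at position -64 in Nr5a2 and -28 in Pparg, where -1 is the base before the start. Each of these genes has a further entry with no half-site, and Pparg has another with it at -9. Rarg, also called lower, has a half-site at -225 and is not shown. Entries with a half-site also belong to genes not called (Nr1d2, Nr1h4, Rxra and Thrb) or not measured (Nr0b1, Nr6a1 and Rxrg). Other genes called lower, Vdr, Nr2e3, Nr1d1, Nr1h3, Nr2f2, Hnf4a and Nr2c2, have no entry with one. A match of letters is a description and not a bound site.
Nr5a2 promoter (chr1:136960449-136960698, minus strand): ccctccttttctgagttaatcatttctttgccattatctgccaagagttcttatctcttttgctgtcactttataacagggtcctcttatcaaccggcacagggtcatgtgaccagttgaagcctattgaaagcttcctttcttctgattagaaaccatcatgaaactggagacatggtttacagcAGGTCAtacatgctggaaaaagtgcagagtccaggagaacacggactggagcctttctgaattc
Pparg promoter (chr6:115360894-115361143, plus strand): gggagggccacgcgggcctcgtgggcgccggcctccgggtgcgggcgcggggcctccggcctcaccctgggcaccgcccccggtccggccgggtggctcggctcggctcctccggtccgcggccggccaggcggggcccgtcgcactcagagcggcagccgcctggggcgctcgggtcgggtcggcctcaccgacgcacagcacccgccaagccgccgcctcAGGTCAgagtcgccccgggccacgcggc

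Genes that act with the receptors were read as lists. Each count below is of measured genes called by limma, to be set beside 47.2% called among all genes, 21.7% higher and 25.5% lower, and each gene value is a mean log2 ratio ± SD over the 2 replicates. Of the genes of retinoid supply and response, 4 of 7 measured were higher and 1 was lower (71.4% called, median 0.43), while 11 listed genes were not measured. Rbp4, the carrier of retinol in blood, was at 3.42 ± 0.38 (replicates 3.15 and 3.70), and Rdh10, which oxidises retinol on the way to retinoic acid, at 1.64 ± 0.16 (1.53 and 1.75). Rdh11, a retinal reductase, was at 0.58 ± 0.26. Lrat, which stores retinol as esters, was called lower (limma adjusted p = 0.0193). On none of 3 arrays was its signal well above background for the RNA labelled Lgr5-GFP. Its mean ratio, 1.53-fold lower with replicates at -0.81 and -0.42, therefore rests on a dim signal and is not a lower limit. Raising the dim signal to each array's lowest signal above background, where that was higher, left the log2 ratio at its measured -0.62. Isx, an intestinal repressor of vitamin A uptake, at -0.35, and the retinal dehydrogenase gene Aldh1a1, at 0.01, were not called. The retinoic acid receptor measured beside them, Rarg, was at -0.40 by its kept probe, with a sign that depended on the probe.

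Targets of the glucocorticoid and mineralocorticoid receptors were called in 6 of 11 (54.5%, median -0.05), 3 in each direction. The sodium channel subunit genes Scnn1b and Scnn1a were higher at 2.67 ± 0.57 and 2.54 ± 0.40, and the transcription factor gene Klf9 at 0.82 ± 0.13. Scnn1b was above background in the RNA labelled CD24hi on 2 of 3 arrays. The kinase gene Sgk1 was lower at -1.79 ± 0.15, as were the phosphatase gene Dusp1 at -0.84 ± 0.03 and Errfi1, an inhibitor of EGF receptor signalling, at -0.60 ± 0.13. Tsc22d3 (GILZ), at -0.18, and the clock gene Per1, at -0.05, were not called. Nr3c1 was lower and Nr3c2 was not called, and genes known to respond to these receptors were called on both sides.

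For thyroid hormone, 4 of 6 measured genes were called (66.7%, median 0.13). Klf9, also a thyroid hormone target, was higher at 0.82, and the deiodinase gene Dio1 at 0.49 ± 0.07. Crym, a cytosolic binder of the hormone, was lower at -0.84 ± 0.55 (replicates -1.23 and -0.45), and the transporter gene Slc16a10 at -0.54 ± 0.01, with Slc16a10 above background for the RNA labelled Lgr5-GFP on 2 of 3 arrays. Me1, an enzyme that supplies NADPH for lipid synthesis, was at -0.05 and was not called. For vitamin D, 4 of 8 target genes were measured and limma called 0 of them, also at an unadjusted p under 0.05, with a median of -0.09. The calcium pump gene Atp2b1 was at -0.10 and the cell cycle inhibitor Cdkn1a at 0.29, beside Vdr at -1.71.

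PPAR targets were called in 9 of 19 (47.4%, median -0.17), 4 higher and 5 lower. Plin2, a lipid droplet protein, was lower at -1.14 ± 0.08 and Angptl4, an inhibitor of lipoprotein lipase, at -0.88 ± 0.10. Ehhadh, a peroxisomal enzyme of fatty acid oxidation, was higher at 0.61 ± 0.08, the carnitine carrier gene Slc25a20 at 0.52 ± 0.08 and Ucp2 at 0.49 ± 0.29. The mitochondrial dehydrogenase gene Acadvl, at -0.43, and the fatty acid binding protein gene Fabp2, at -0.27, were not called.

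LXR and FXR targets were called in 4 of 11 (36.4%, median -0.02), 2 in each direction. Scd1, a fatty acid desaturase, was higher at 1.49 ± 0.15 and Lpcat3, a phospholipid remodelling enzyme, at 1.31 ± 0.28. The cholesterol exporters Abca1 and Abcg5 were lower at -0.92 ± 0.05 and -0.62 ± 0.03, and Srebf1, at -0.05, and Scd2, at -0.20, were not called. Abca1 was above background for the RNA labelled Lgr5-GFP on 1 of 3 arrays and passed the filter through the other RNA. The LXR genes themselves were also called on both sides, with Nr1h2 higher and Nr1h3 lower. Genes of xenobiotic metabolism were called in 3 of 13 (23.1%, median -0.09). Por, which passes electrons to cytochromes P450, was higher at 0.88 ± 0.22 and Cyp2c55 at 0.66 ± 0.19, while the exporter gene Abcc3 was lower at -0.84 ± 0.15. The glutathione transferase genes Gstm1, at -0.37, and Gsta1, at -0.09, were not called.

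Clock genes were called in 5 of 10 (50%, median -0.15). The activator Clock was lower at -1.16 ± 0.17, with Dbp, an output factor, at -0.65 ± 0.19 and the repressor Per2 at -0.53 ± 0.05. The repressors Cry2 and Per3 were higher at 0.69 ± 0.32 and 0.39 ± 0.10, both above background in the RNA labelled CD24hi on 2 of 3 arrays. Bhlhe40, at -0.38, and Nfil3, at -0.18, were not called, and the time of day at which cells were taken is not given in the labels. In the estrogen and estrogen-related list, 3 of 9 were called (33.3%, median -0.14), all lower: Hsd17b10 at -1.09 ± 0.09, Idh3a of the citric acid cycle at -0.62 ± 0.06 and the peroxisomal gene Hsd17b4 at -0.59 ± 0.06. The respiratory chain genes Atp5b, at -0.14, and Cycs, at 0.18, were not called. Without the dye swap of replicate 1, 3 genes of this list were higher and 3 lower, beside 57.7% of all genes called.

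HNF4 targets were called in 4 of 10 (40%, median -0.18). Cdhr5, a cadherin of the brush border, was higher at 1.87 ± 0.67 and Cldn15, a tight junction protein, at 0.66 ± 0.56, while Ttr, a carrier of thyroid hormone and of the retinol binding protein, was lower at -0.52 ± 0.13. Ttr was above background for the RNA labelled Lgr5-GFP on 1 of 3 arrays. Fabp2, at -0.27, and the microvillus gene Vil1, at 0.09, were not called, beside Hnf4a at -0.57 and Hnf4g at -0.46.

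**Figure D5:**
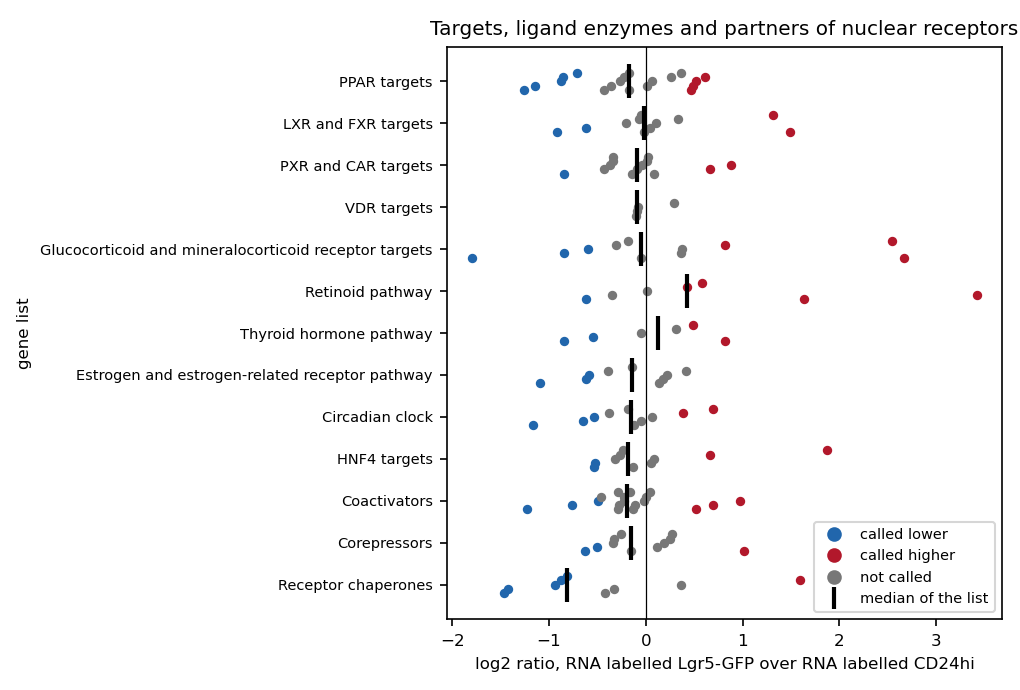
Mean log2 ratio of RNA labelled Lgr5-GFP over that labelled CD24hi (horizontal axis) of each measured gene in 13 lists of receptor targets, ligand enzymes and partners (vertical axis), coloured by limma's call, with a black bar at each list's median. Most medians lie between -0.19 and 0.13, with the retinoid list at 0.43 and the chaperones at -0.81 outside that range.

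Of the proteins that receptors work with, the chaperones had the lowest list median. Of 9 chaperone genes 5 were lower and 1 was higher (66.7% called, median -0.81). Hsp90aa1, which holds steroid receptors ready for ligand, was lower at -1.42 ± 0.04, and its co-chaperones Ppid and Ptges3 at -1.46 ± 0.00 and -0.94 ± 0.27. Bag1, an Hsp70 co-chaperone, was higher at 1.59 ± 0.64 (replicates 1.13 and 2.04). Fkbp4, at -0.33 with replicates of -0.81 and 0.15, and Stip1, at -0.42, were not called.

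All 18 coactivator genes were measured and 6 were called (33.3%, median -0.19), 3 in each direction. Trip4 was higher at 0.97 ± 0.12, the acetyltransferase gene Kat2b at 0.69 ± 0.09 and Ncoa4, known also for ferritin turnover, at 0.52 ± 0.20. The arginine methyltransferase gene Prmt1 was lower at -1.23 ± 0.31, Ncoa6 at -0.76 ± 0.03 and the Mediator subunit gene Med1 at -0.49 ± 0.18. Med24, at 0.04, and Ncoa7, at -0.46, were not called. Of 11 corepressor genes 3 were called (27.3%, median -0.15). Ncor1, a scaffold that unliganded receptors recruit, was lower at -0.50 ± 0.11, and Zbtb7a was higher at 1.02 ± 0.73 (replicates 0.50 and 1.53). The deacetylase gene Hdac3, at -0.26, and Nrip1, at 0.27, were not called. Without the dye swap of replicate 1, 1 corepressor gene was higher and 4 were lower, beside 57.7% of all genes called.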

How the data were processed

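Per the file headers, arrays were read with Agilent Feature Extraction 10.5.1.1. For each spot the authors deposited intensity values of both colours, as the spot mean and the median of the local background, not normalized, and a further deposited set of intensity values was background-subtracted and dye-normalized by that software. The deposited log10 ratio was red over green of that processed set. The authors' deposited series table held log2 ratios of red over green, known from a comparison with the log10 ratios of the arrays (r of 0.977, 0.931, 0.95 and 0.987, column medians of -0.01, -0.11, -0.01 and -0.02). The columns of dye swaps kept the red over green direction. How the table was normalized is not given in the sources used.

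Spots of non-uniform background were left out, background was corrected with normexp (offset 50) and arrays were normalized by loess in limma 3.58.1 (R 4.3.3), with control spots at weight 0. Spots marked as outliers (100, 32648, 173 and 163 of 43379) were left out of the loess and of the values. With marked spots in the loess fit, 5562 genes were called rather than 6985, and the choice between these was made after both were seen, to follow earlier work. Swapped arrays were turned, each array and its swap averaged, and the 2 replicate ratios tested against 0 (2-sided, 1 residual and 4.5 prior degrees of freedom, Benjamini-Hochberg adjusted over 14801 genes). A gene was shown by its brightest probe well above background, in at least 1 population, on all arrays with a value. Of the spots, 27041 were named through RefSeq (GRCm38.p6) and 16338 kept the file's name. The fit was also run on data simulated with spreads drawn from its own fitted model. That run cannot show whether the model holds for these arrays. The number of arrays limits the precision.

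The members, lists, tests and processing steps were chosen with earlier results of these data known. Every matching gene was named, except that 1 measured receptor and some list genes are not reported here and enter the counts and medians only. From each pathway list, up to 3 called genes per direction with the largest ratios and up to 2 uncalled genes of highest signal were named, and Lgr5, Cd24a, Muc2 and Mki67 among the markers. The marker genes Cd14 and Col1a2 and those not measured were named after their values were seen.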

Additional observations from a re-analysis of the deposited data

Results flagged for a closer look

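The log2 ratio of Nr1d1 on the dye swap of replicate 1 was -1.88, while the other 3 arrays lay between -1.09 and -1.04. Its gap to the nearest array was 0.939 of the whole range, above Dixon's critical value for 4 values. The log2 ratio of Vdr on the same array was -0.16, while the other arrays lay between -2.42 and -2.08, with a gap of 0.848 of the range. The same array moved Nr1d1 away from 0 and Vdr towards it. Of 13 receptors with 4 values, 2 passed this limit. Chance passes about 1 group in 20 where the 4 values are independent, which arrays paired by dye swap are not. That array had 75.3% of its spots marked as outliers, and the part of this in both values was not tested. Without it the means were -1.06 for Nr1d1 and -2.27 for Vdr.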

How the results depend on the processing

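Of the 16 called receptors, Vdr and Thra were called lower under every alternative in which they had a value (14 and 13), with ranges of -2.27 to -1.14 and -1.53 to -0.65. With spots of non-uniform local background kept, 1387 genes and 3 receptors were called, 1 higher and 2 lower, and 1 receptor was at least 2-fold in both replicates, lower. With marked spots kept, 3731 genes and 10 receptors were called, 1 of them higher. With processed signals, the series table, median centring, or marked spots in the loess fit, 1 receptor was called higher, and with processed signals 1 was at least 2-fold higher in both replicates. With the mean over kept probes 3 receptors were at least 2-fold, 3 of them lower. Leaving out 1 array at a time gave 981 to 8542 genes and 2 to 18 receptors called. Without the first array of replicate 1, 0 receptors were called higher (limma, 4 of 13 at an unadjusted p under 0.05) and 2 lower, and 1 was at least 2-fold in both replicates, 1 lower. Without the dye swap of replicate 1, 7 receptors were at least 2-fold in both replicates, 1 higher and 6 lower. Nr2c2 turned to 0.13 with no filter on dim probes and to 0.18 without the first array of replicate 2 (limma adjusted p = 0.405 and 0.357). Rarg turned to 0.37 with no filter, 0.49 without the first array of replicate 2 and 0.25 without its dye swap (limma adjusted p = 0.0387, 0.0258 and 0.218). In replicate 2 alone Nr2c2 was at -1.13 and Rarg at -0.48. In the turned cases another probe stood for the gene. For the other settings the cause was not tested. No paired analysis was possible because the arrays form 1 group of ratios, already within replicate. The 2 replicates and the marked spots limit what can be shown, and 15 receptors lay too near background to be read.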
